A study of Sporobolus alterniflorus and Setaria viridis with 12 samples.

Results

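The table of this series gives leaf transcript levels of 15218 genes in the grasses Spartina alterniflora and Setaria viridis, and 19 of these genes are described here. They were abundant in unstressed S. alterniflora leaves and at trace level in S. viridis leaves. A gene was taken when each of the 3 S. alterniflora control libraries had 100 FPKM or more and each of the 6 S. viridis libraries had under 5 FPKM, with at least one S. viridis library above 0. FPKM is a fragment count divided by the length of the gene and by the size of the library. The S. alterniflora controls and all S. viridis libraries therefore chose the genes, so the gap between the species is a description, and no test of it is given. The S. alterniflora salt libraries were not used to choose them.

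Mature leaf RNA was sequenced as paired 150-base reads in 4 groups of 3 libraries: salt-treated S. alterniflora, control S. alterniflora, salt-treated S. viridis and control S. viridis. The labels list S. alterniflora under its current name, Sporobolus alterniflorus, and name NaCl as the salt, given in hydroponic culture. The treatment protocol gives 50 mM for S. alterniflora and 250 mM for S. viridis, whereas the column names of the table carry 250 for S. alterniflora and 50 for S. viridis. The dose of either species is therefore uncertain, and by either source dose and species differ together. Exchanged species prefixes in the column names would also give this mismatch, and the species of all values below would then be exchanged too. The letters A, B and C of the column names tell the libraries within a group apart. Nothing in the labels says that they stem from different plants, so the tests read the spread between libraries, which may be technical.

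Smooth cordgrass, S. alterniflora, is a polyploid grass of tidal salt marshes that secretes salt through glands on its leaves. Green foxtail, S. viridis, is a small diploid grass and a laboratory model of C4 photosynthesis, the carbon-concentrating pathway that both species use. Both were measured on one set of Setaria gene IDs, and the sources used here do not say how reads of S. alterniflora were matched to them. Reads of a gene with a near-identical copy can be split between copies or placed on only one of them, and in a polyploid the copies of a gene may be counted together. The files pair 0 of the IDs with a gene name, so the genes are given by ID, without roles, and markers of leaf tissue could not be looked up.

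Libraries of the same group were less alike in S. alterniflora than in S. viridis by rank. Spearman correlations across all genes were 0.854 to 0.928 among S. alterniflora salt libraries and 0.894 to 0.936 among its controls, against 0.949 to 0.956 and 0.982 to 0.989 in S. viridis. These are descriptions across genes, with no test. Total FPKM was 666702 to 915944 in S. alterniflora and 510410 to 631719 in S. viridis, and the read depth behind the values is unknown.

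The 19 genes were a small share of the abundant S. alterniflora genes. All 3 S. alterniflora controls were at 100 FPKM or more for 379 genes, of which the 19 made up 5.01%. Another 2 of the 379 had 0 in each of the 6 S. viridis libraries. The mirrored rule, with every S. viridis control at 100 FPKM or more and every S. alterniflora library under 5 but not all at 0, was met by 126 of 739 genes, or 17.1%. By mean control level the 19 genes ranked between 61 and 419 of 15218 in S. alterniflora and between 8030 and 13154 in S. viridis.

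Together the 19 genes held 0.558% of total FPKM in S. alterniflora salt library A, 0.837% in B and 0.674% in C, against 0.772%, 0.84% and 0.751% in control libraries A, B and C. Their mean share was 0.69% ± 0.14 under salt and 0.787% ± 0.0469 in controls (SD, n = 3 each), and the groups overlapped because salt library B was as high as the controls. In S. viridis the share was 0.00374% ± 0.000341 under salt and 0.00367% ± 0.000471 in controls (SD, n = 3 each).

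**Figure D1:**
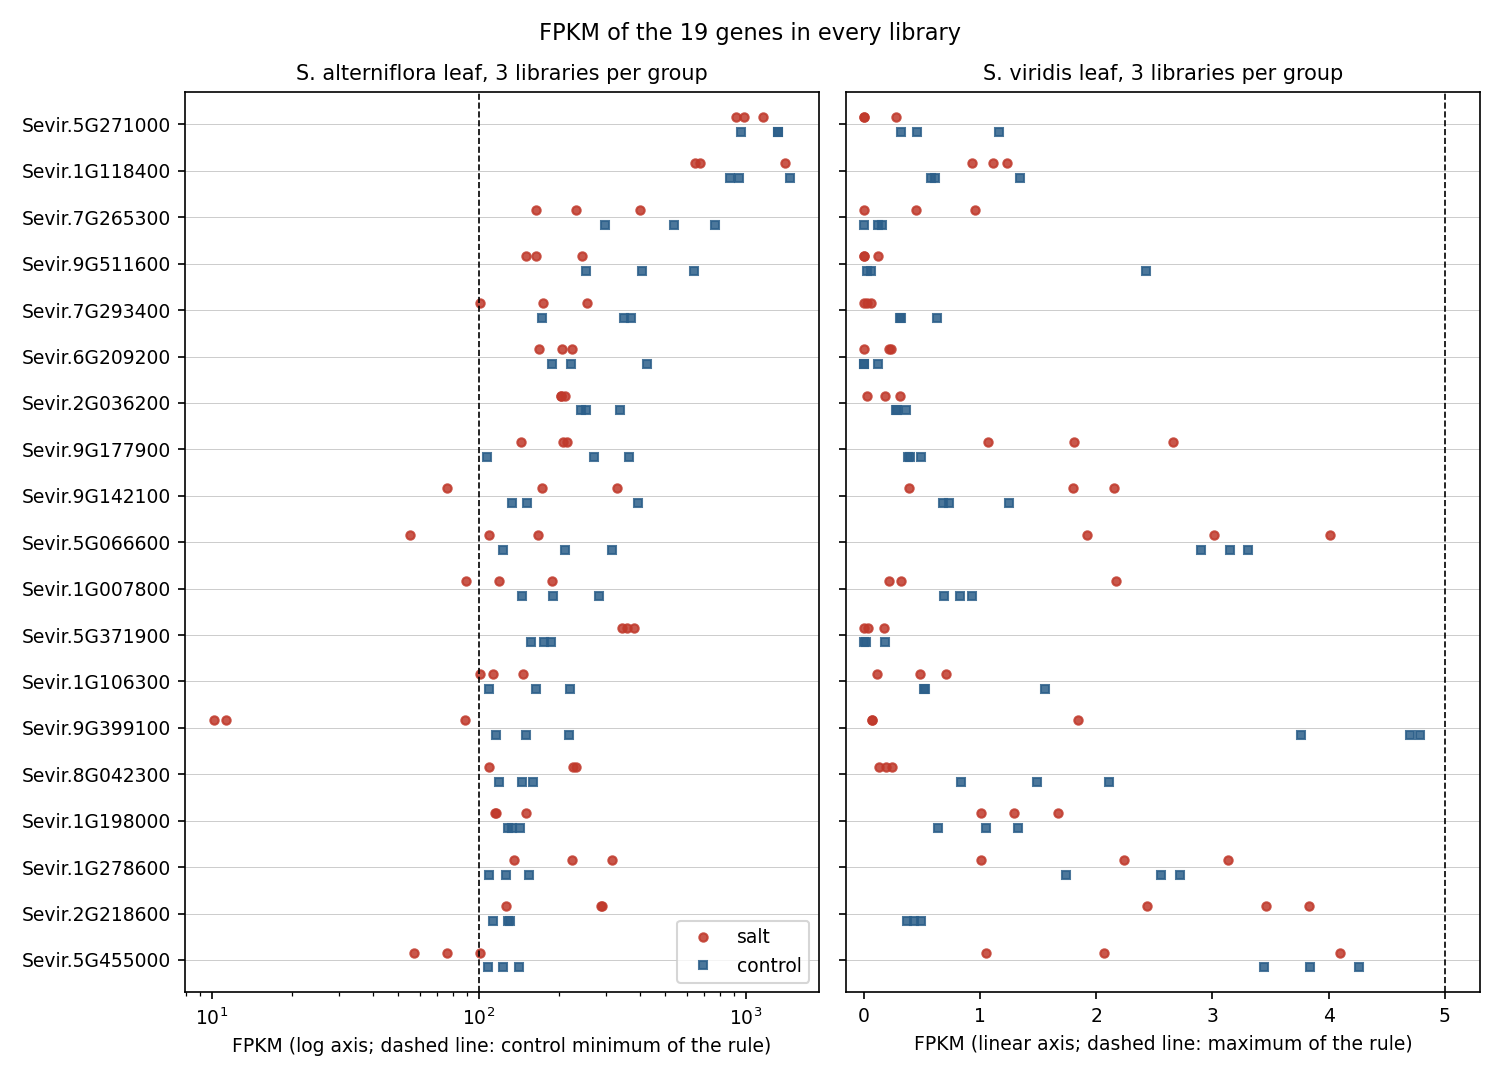
FPKM of the 19 genes in each library, S. alterniflora on a log axis at the left and S. viridis on a linear axis at the right, with salt libraries as red circles above control libraries as blue squares. Genes are ordered by their mean in S. alterniflora controls. The lowest S. alterniflora value is 10.2 FPKM, in a salt library of Sevir.9G399100, and the highest S. viridis value is 4.79 FPKM, in a control of the same gene.

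The plot of all 19 genes by library shows a gap between the species in each gene, salt libraries included. In 19 of 19 genes the lowest of 6 S. alterniflora values exceeded the highest of 6 S. viridis values. The ratio of these values ran from 2.13 for Sevir.9G399100 to 871 for Sevir.5G371900. At 14 of 19 genes all 3 S. alterniflora salt libraries, which the rule did not read, were also at 100 FPKM or more. Of the other 360 genes with every S. alterniflora control at 100 FPKM or more, 305 (84.7%) met this under salt, against 73.7% of the 19.

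Sevir.5G271000 was the most abundant by its mean in S. alterniflora controls. It had 922, 1159.8 and 982 FPKM in S. alterniflora salt libraries A, B and C, and 1324, 959 and 1319 FPKM in controls A, B and C. S. viridis libraries had 0.28, 0 and 0 FPKM under salt and 0.32, 0.46 and 1.16 FPKM in controls. Its S. alterniflora groups overlapped, and in S. viridis all salt values lay below all controls, at levels near 0.

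Sevir.1G118400 had 675, 1401 and 648 FPKM in S. alterniflora salt libraries and 944, 874 and 1465 FPKM in controls. The S. viridis values were 1.23, 0.93 and 1.11 FPKM under salt and 0.61, 0.58 and 1.34 FPKM in controls. Salt library B and control library C stood above the other S. alterniflora libraries, and the groups overlapped in both species. These first 2 genes had S. alterniflora control means of 1201 ± 209 and 1094 ± 323 FPKM (SD, n = 3 each), about double the next highest mean, 533.5 ± 234 FPKM for Sevir.7G265300.

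Sevir.7G265300 had 164, 402 and 232 FPKM in S. alterniflora salt libraries and 537, 766 and 298 FPKM in controls. Its S. viridis values were 0, 0.96 and 0.45 FPKM under salt and 0.16, 0 and 0.12 FPKM in controls. The groups overlapped in both species, since S. alterniflora salt library B lay above control C. Sevir.9G511600 had 164, 151 and 243 FPKM in S. alterniflora salt libraries, all below its control values of 253, 409 and 641 FPKM. In S. viridis it was listed at 0 in salt libraries A and B and at 0.12 FPKM in C, against 0.06, 0.03 and 2.43 FPKM in controls. A single S. viridis library, control C, thus held nearly all of its S. viridis signal.

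Sevir.7G293400 had 255, 101 and 173 FPKM in S. alterniflora salt libraries and 373, 351 and 172 FPKM in controls, and these overlapped. In S. viridis it had 0.06, 0.03 and 0 FPKM under salt, below all controls at 0.32, 0.63 and 0.31 FPKM. In S. alterniflora its mean was 177 ± 76.8 FPKM under salt and 299 ± 110 FPKM in controls (SD, n = 3 each), a difference that did not pass (adjusted p = 0.463 by limma).

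Some of the 19 genes had the least trace in S. viridis. By their highest value in any S. viridis library the lowest were Sevir.5G371900 at 0.18 FPKM, Sevir.6G209200 at 0.23 FPKM and Sevir.2G036200 at 0.36 FPKM. Sevir.6G209200 was listed at 0 in 3 of 6 S. viridis libraries, salt B and controls A and C, while S. alterniflora had 168, 205 and 224 FPKM under salt and 221, 188 and 427 FPKM in controls. Control C stood above the other 5 S. alterniflora libraries, and the groups overlapped.

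Sevir.2G036200 was above 0 in all 6 S. viridis libraries, at 0.18, 0.03 and 0.31 FPKM under salt and 0.36, 0.28 and 0.29 FPKM in controls. In S. alterniflora it had 204, 203 and 211 FPKM under salt, below all its controls at 339, 242 and 253 FPKM. The salt libraries of this gene were closer together than those of any other of the 19, with the highest 1.04 times the lowest.

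At the other end, the highest S. viridis values belonged to Sevir.9G399100 at 4.79 FPKM, Sevir.5G455000 at 4.26 FPKM and Sevir.5G066600 at 4.01 FPKM. Sevir.5G455000 had 57.3, 101 and 75.9 FPKM in S. alterniflora salt libraries, all below the controls at 141, 123 and 108 FPKM. Its S. viridis values were 2.07, 1.05 and 4.1 FPKM under salt and 4.26, 3.44 and 3.84 FPKM in controls, with salt library C inside the control range. Sevir.5G066600 had 55.1, 166 and 109.6 FPKM in S. alterniflora salt libraries and 209.7, 124 and 317 FPKM in controls, against 1.92, 3.01 and 4.01 FPKM in S. viridis salt libraries and 3.31, 3.15 and 2.9 FPKM in its controls. Its groups overlapped in both species.

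Of 114 S. viridis values, 12 were listed at 0, and they fell in 6 genes, with 13 genes above 0 in all 6 libraries. The mean over 6 S. viridis libraries ran from 0.0683 to 3.13 FPKM with a median of 0.86 FPKM, and 5 genes stayed under 1 FPKM in every S. viridis library. Among the 19 genes, those most abundant in S. alterniflora tended to be the lowest in S. viridis. Across the 19 genes the mean over 6 S. alterniflora libraries and the mean over 6 S. viridis libraries had a Spearman correlation of -0.672. This describes genes chosen by thresholds on both axes and measured in the same libraries.

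The thresholds cut through a continuous range. Just inside the S. alterniflora threshold lay Sevir.9G177900, with a lowest control of 107 FPKM, and Sevir.5G455000 with 108 FPKM. Just outside lay Sevir.3G003400 with 98.2 FPKM and Sevir.9G248900 with 89.3 FPKM. At the S. viridis threshold Sevir.9G399100 and Sevir.5G455000 were just inside, and Sevir.2G353300, with a highest S. viridis value of 5.87 FPKM, and Sevir.1G157500, with 9.13 FPKM, were just outside. Sevir.2G353300 otherwise resembled the most abundant members, at 548, 548 and 437 FPKM in S. alterniflora salt libraries and 928, 635 and 1285 FPKM in controls.

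The S. alterniflora salt libraries were compared with its controls. The rule chose the genes by these same controls, so the comparison is not independent of the choice. It cannot settle whether the levels in S. alterniflora depended on salt. No gene of the 19 passed the test there: 0 were called higher and 0 lower by limma on log2(FPKM + 1), adjusted over all 11330 tested genes (threshold 0.05), where 1.62% of all tested genes were called, 1.43% higher and 0.194% lower. At an unadjusted p under 0.05 by limma, 1 of the 19 was higher and 3 were lower, where 10.7% of all tested genes were higher and 4.05% lower. Of the 360 other genes with every S. alterniflora control at 100 FPKM or more, 38 were higher and 42 lower. All 19 genes passed the filter of a mean of at least 1 FPKM. Without control library A limma called 0 genes in the whole table, so that fit gives no reading of these genes. With the spread estimated from both species in 1 fit of 12 libraries, limma called 2 of the 19, Sevir.5G371900 and Sevir.9G399100, and 4.2% of 12529 tested genes.

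The salt minus control difference ran from -2.76 to 1.06 (log2) over the 19 genes with a median of -0.4, and it was below 0 in 15 genes. The 360 other genes with every S. alterniflora control at 100 FPKM or more had a median of -0.14, with 211 (58.6%) below 0, and all 11330 tested genes a median of 0.06. Genes taken for high controls are chosen toward a negative difference. The 360 share that choice, but their difference from the 19 was not tested. Without control library C the median of the 19 was -0.17. In 4 of the 19 genes all salt libraries lay below all controls, against 7.01% of tested genes, and in 1 gene all lay above, against 14.7%. Among the 360, 65 (18.1%) had all salt libraries below the controls. The rule read these controls, so nothing is read from those counts.

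**Figure D2:**
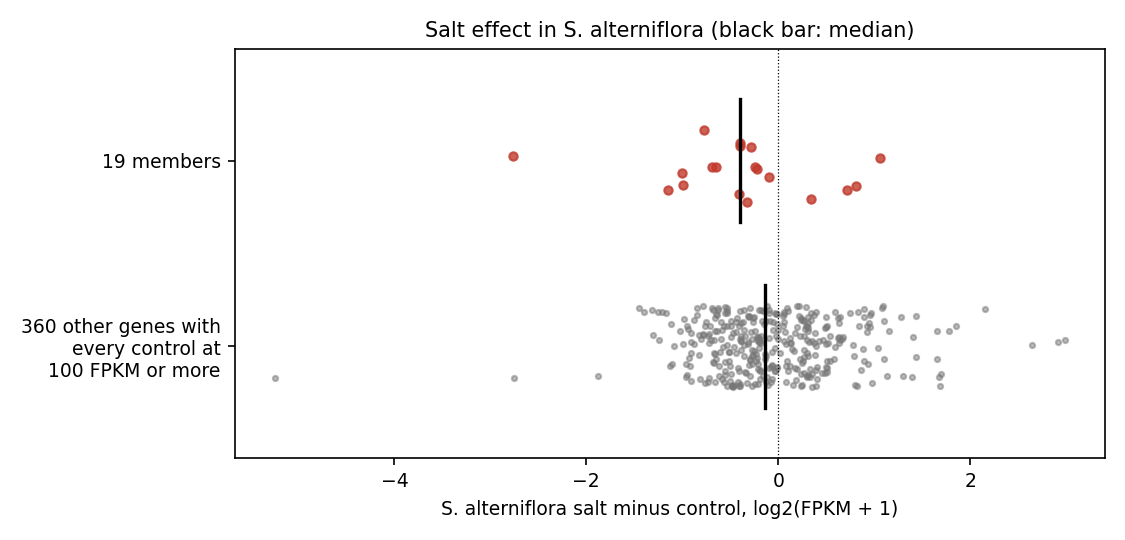
Salt minus control difference in S. alterniflora on the log2(FPKM + 1) scale, for the 19 genes in red and, under them, the 360 other genes with every S. alterniflora control at 100 FPKM or more in grey, each point 1 gene and each black bar a median (vertical scatter is arbitrary). The medians are -0.4 and -0.14, and 15 of the 19 points lie left of 0.

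Sevir.5G371900 had the highest salt value relative to control in S. alterniflora. It was at 381, 359.7 and 345 FPKM in salt libraries and at 187, 157 and 175 FPKM in controls. The groups did not overlap, and the libraries within each lay close together, at 362 ± 17.9 FPKM under salt and 173 ± 15.2 FPKM in controls (SD, n = 3 each), a ratio of 2.09. The log2 difference of 1.06 ± 0.22 (SE) did not pass, with an adjusted p of 0.0707 by limma, and the adjusted p over the alternatives ran from 0.0107 to 0.268. In S. viridis the gene was at 0.04, 0 and 0.17 FPKM under salt and 0.02, 0 and 0.18 FPKM in controls.

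Sevir.9G399100 was the lowest under salt relative to control in S. alterniflora, at 10.2, 88.7 and 11.3 FPKM in salt libraries and 217, 116 and 151 FPKM in controls. All salt libraries lay below all controls, with salt library B nearest to them and the others far below. The log2 difference was -2.76 ± 0.77 (SE) with an adjusted p of 0.152 by limma. Without salt library B it was -3.74, with an adjusted p of 0.0173. Over 15 alternatives the adjusted p ran from 0.0173 to 0.435 by limma, and in 13 of them the gene did not pass. Its S. viridis values had the same shape at a far lower level, at 0.07, 1.84 and 0.07 FPKM under salt and 4.79, 3.76 and 4.7 FPKM in controls. Library B was again the highest salt library, although nothing in the labels pairs the letters between the species. The S. viridis groups did not overlap either, at 0.66 ± 1.02 FPKM under salt and 4.42 ± 0.57 FPKM in controls (SD, n = 3 each).

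Sevir.2G218600 was at 127, 289 and 288 FPKM in S. alterniflora salt libraries and at 113, 129 and 131 FPKM in controls, with salt library A inside the control range. The log2 difference was 0.81 ± 0.36 (SE), and the adjusted p was 0.352 by limma. In S. viridis it was at 3.83, 3.46 and 2.44 FPKM under salt and 0.37, 0.43 and 0.49 FPKM in controls. All salt libraries of S. viridis lay above all its controls, at 3.24 ± 0.72 FPKM under salt and 0.43 ± 0.06 FPKM in controls (SD, n = 3 each).

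For Sevir.9G511600, whose S. alterniflora values under salt lay below the controls, the log2 difference was -1.15 ± 0.38 (SE) with an adjusted p of 0.226 by limma. The ratio of its group means was 0.428, the lowest after the 0.228 of Sevir.9G399100.

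In S. viridis, salt effects on these genes could be measured only within the 5 FPKM bound, since a gene that passed it under salt was not taken. There 8 of the 19 genes reached the filter of a mean of at least 1 FPKM. The rule read all 6 libraries, so the values are a description, and being counted by the fit is no test of a single gene. The fit of the whole table counted 2 of the 8 as higher under salt, Sevir.2G218600 and Sevir.9G177900, and 1 as lower, Sevir.9G399100 (limma, adjusted p under 0.05), where 52.5% of all 11266 tested genes were called, 25.4% higher and 27.1% lower. Nothing is read from that count.

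Sevir.9G177900 had 1.07, 2.66 and 1.81 FPKM in S. viridis salt libraries, all above the controls at 0.49, 0.4 and 0.38 FPKM. It was no longer counted without any one S. viridis control, and without salt library B its mean was under the filter. In S. alterniflora it had 214, 144 and 207 FPKM under salt and 271, 366 and 107 FPKM in controls, with a log2 difference of -0.24 ± 0.46 (SE, adjusted p = 0.84 by limma). Control library C was the lowest of all 6 there, and controls A and B the highest.

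Of the 8 genes that reached the filter, the 3 S. viridis salt libraries lay below the 3 controls in 1 gene and above them in 2, against 34.6% and 30.8% of the tested genes. Over all 19 genes they lay below in 4 and above in 2. Without the filter limma counted 5 of 19 genes, where 44.9% of 14295 tested genes were called. Sevir.7G293400 and Sevir.8G042300 were the ones added, both with lower values under salt and controls at most 2.11 FPKM. Nothing is read from these counts either.

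**Figure D3:**
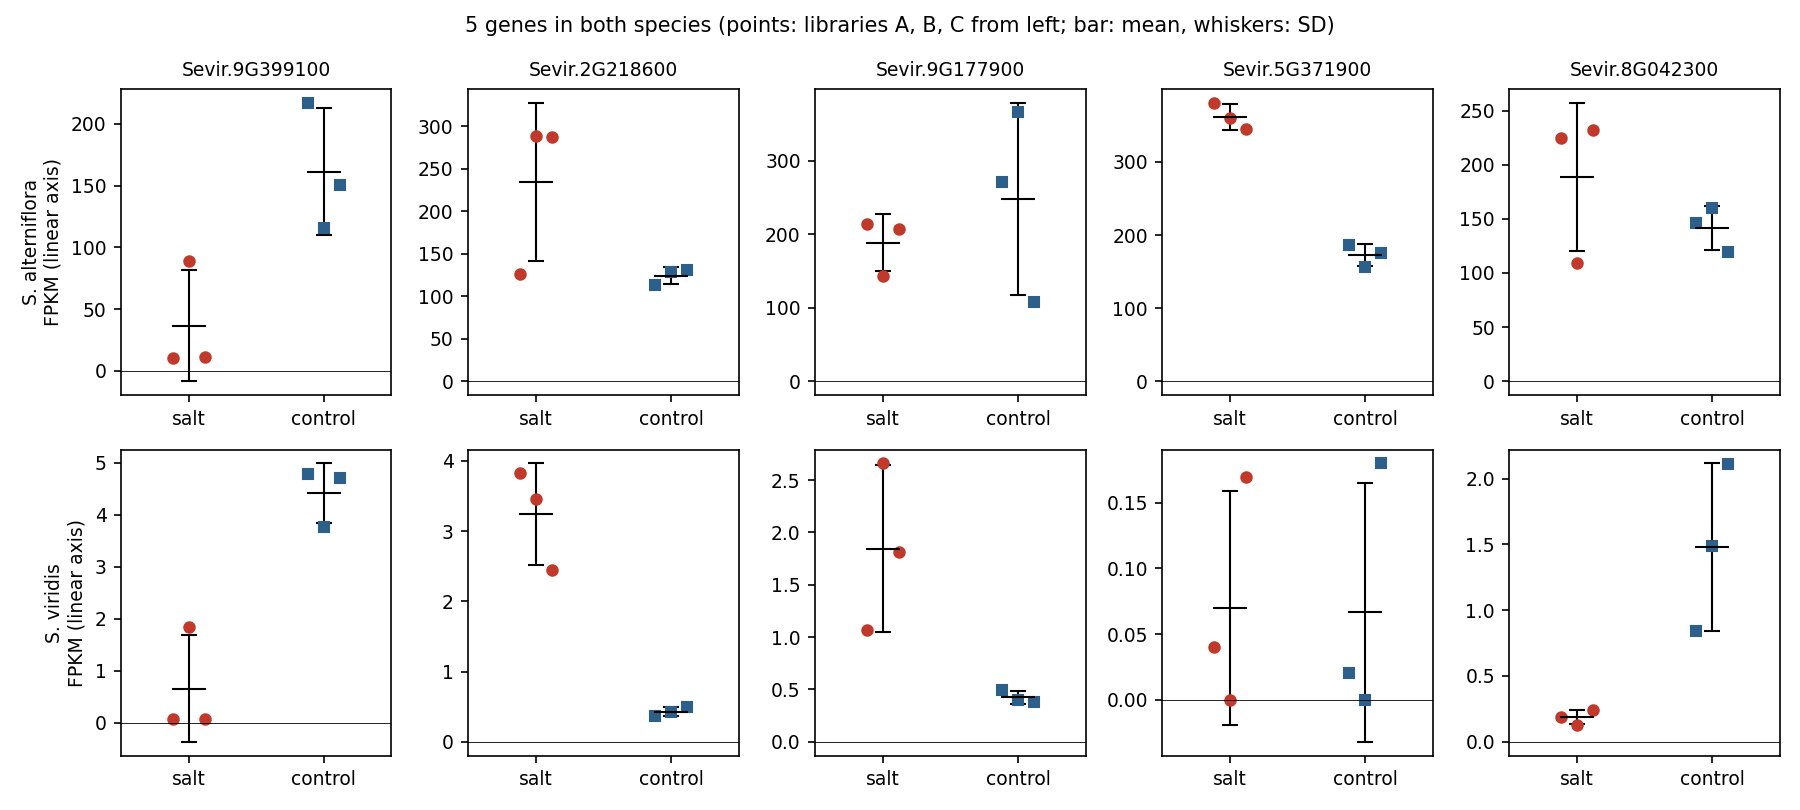
FPKM per library of the 5 genes counted by the S. viridis fit or by the fit of both species, S. alterniflora in the upper row and S. viridis in the lower row, each with its own linear axis and salt left of control. Points are libraries A, B and C from left to right within a group, bars are means and whiskers SD (n = 3). Sevir.9G399100 is lower in all salt libraries than in all controls of both species, with library B nearest to the controls, and Sevir.5G371900 is higher in all S. alterniflora salt libraries than in its controls.

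The salt effects of the species were also set against each other in 1 model of 12 libraries, as the S. alterniflora effect minus the S. viridis effect. The rule read 9 of these libraries. Of the 19 genes, 11 had a mean under 1 FPKM over the 6 S. viridis libraries and passed the filter through their S. alterniflora values. The fit is therefore no test of whether the species differ in these genes, singly or as a set. The 2 genes counted, Sevir.8G042300 and Sevir.5G371900, were both among those 11 and had the higher effect in S. alterniflora. The count was 2 of 19 (limma, adjusted p under 0.05), where 24.2% of 12529 tested genes were called, 13.4% higher and 10.7% lower. Nothing is read from that count. Without S. viridis control library C it was 0, without S. alterniflora salt library B it was 4 and without S. alterniflora control library C it was 3. It was 2 without S. viridis salt library C or control library A, and 1 without any other library. The median difference was -0.53 over the 19 genes and 0.14 over all tested genes, and with a pseudocount of 0.1 the median over the 19 was 0.15, so its sign depended on the pseudocount.

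Sevir.8G042300 was at 224, 109.6 and 232 FPKM in S. alterniflora salt libraries and 146, 159.7 and 119 FPKM in controls, overlapping through salt library B. Its log2 difference there was 0.34 ± 0.34 (SE, adjusted p = 0.682 by limma). In S. viridis it was at 0.19, 0.13 and 0.24 FPKM under salt, below all controls at 0.84, 1.49 and 2.11 FPKM. The salt libraries thus lay below the controls in S. viridis and on both sides of them in S. alterniflora, whereas for Sevir.5G371900 the groups separated in S. alterniflora and overlapped near 0 in S. viridis.

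The remaining 5 genes fall outside the rule for named genes and are given to complete the account. Sevir.9G142100 had 76.2, 331 and 172 FPKM in S. alterniflora salt libraries and 152, 133 and 394 FPKM in controls, a spread of 4.34 times among salt libraries and 2.97 times among controls. S. viridis libraries had 2.15, 0.39 and 1.8 FPKM under salt and 0.73, 0.68 and 1.25 FPKM in controls. Salt and control overlapped in both species.

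Sevir.1G007800 had 89.6, 119 and 188 FPKM in S. alterniflora salt libraries and 190.3, 145 and 281 FPKM in controls, with S. viridis at 0.22, 0.32 and 2.17 FPKM under salt and 0.83, 0.93 and 0.69 FPKM in controls. Sevir.1G106300 had 101, 146 and 113 FPKM in S. alterniflora salt libraries and 164, 109 and 219 FPKM in controls, with S. viridis at 0.11, 0.48 and 0.71 FPKM under salt and 0.52, 0.53 and 1.56 FPKM in controls. In both genes the groups overlapped and control library C was the highest S. alterniflora library.

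Sevir.1G198000 was among the steadiest in S. alterniflora, at 116, 149.6 and 115 FPKM under salt and 133, 128 and 142 FPKM in controls, and in S. viridis it had 1.29, 1.01 and 1.67 FPKM under salt and 1.33, 0.64 and 1.05 FPKM in controls. Sevir.1G278600 had 136, 316 and 222 FPKM in S. alterniflora salt libraries and 109, 126 and 155 FPKM in controls, and 3.13, 2.24 and 1.01 FPKM in S. viridis salt libraries against 2.56, 2.72 and 1.74 FPKM in its controls. The groups of these genes overlapped in both species. The adjusted p of Sevir.1G278600 in S. alterniflora was 0.391 by limma, for a log2 difference of 0.72 ± 0.35 (SE).

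The spread among S. alterniflora libraries was wide for these genes. The highest salt library was a median 2.1 times the lowest over the 19 genes and 1.5 times over the 360 others, and the highest control library was 1.87 times the lowest against 1.52 times. Control library C was the highest control for 10 of the 19 genes (52.6%) and for 123 of the 360 (34.2%). Salt library B was the highest salt library for 11 (57.9%) and for 182 (50.6%). Both held at once for 7 of the 19 genes and for 59 of the 360. Control library C also had the highest total FPKM of the 12 libraries.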

How the data were processed

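One deposited table holds an FPKM value from the authors for each of 15218 gene IDs in 12 libraries, per the file headers. The submitters' processing notes name RSEM and edgeR but give no role or version for either. Not given in the sources used here are the aligner, the reference, the genome build and any filter. Columns name a group and a letter, not the replicate number, and were assigned to groups only. The genes, their rule and the lists of tests were chosen with earlier results of these data known.

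FPKM is not a count, so log2(FPKM + 1) was fitted with limma 3.58.1 in R 4.3.3 (eBayes with trend, two-sided, Benjamini-Hochberg adjustment over all tested genes, threshold 0.05) where the libraries of the fit averaged at least 1 FPKM. Folds of low genes are understated on this scale. The rule read all S. viridis libraries, so no effect size or p-value of a single gene is given for the S. viridis and interaction fits. Counts are given with the IDs counted and their direction, and being counted is no test of that gene. Salt fits used the 6 libraries of a species and the interaction all 12. By the naming rule, with 0 IDs paired with a name, up to 5 genes were named by level, up to 2 each way per comparison, and those at the extremes of S. viridis level and at the thresholds. The product lists planned could not be used for the same reason. Figures were drawn with Python 3.11.15 and matplotlib 3.10.9.

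FPKM keeps no read total. Ratios between values of 0.15 to 0.8 FPKM piled up at 1 ratio in 15 of 15 S. alterniflora library pairs, at 0.927 to 1.22, and in 15 of 15 S. viridis pairs, at 0.712 to 0.993. The ratios conflicted between pairs. S. viridis salt library A had 0.993 with control A and 0.712 with control B, although controls A and B had 0.966 with each other. They give no depth and no firm comparison of libraries.

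Tried in place of these were other thresholds of the rule, leaving out each library, the column letter as a block, 1 fit over 12 libraries, eBayes without trend, median centring, scaling by the upper quartile, a filter at 5 FPKM or none, a pseudocount of 0.1 and, chosen after seeing the data, scaling to equal totals.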

Additional observations from a re-analysis of the deposited data

How the results depend on the processing

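The count of the 19 genes called for salt in S. alterniflora was 0, and 2 in 1 fit over 12 libraries, with 0 to 1 when single libraries were left out. In S. viridis it was 3, and 5 without the filter, with 2 to 4 on leaving out libraries, while at a filter of 5 FPKM none of the genes could be tested. The interaction count was 2, and 0 with the column letter as a replicate block, with 0 to 4 on leaving out libraries. With a pseudocount of 0.1 it was 3, of which 1 was higher and 2 lower, and Sevir.5G371900 was not among them. The S. viridis and interaction counts rest on libraries that the rule read. Same-lettered salt and control libraries of a species did not deviate together across genes (correlations of -0.0226 to 0.0479). What the letter stands for is not given, and no fit matched letters between species. The block changed no other count of these genes. The number of genes meeting the rule was 19, and 37 with controls at 50 FPKM or more, 5 at 200 FPKM, 9 with S. viridis under 2 FPKM and 21 under 10 FPKM, with 20 to 23 when a control library was left out of the rule. The mean share of total FPKM was 0.616% to 0.755% under salt and 0.761% to 0.806% in controls of S. alterniflora on leaving out libraries. Single effects were recomputed for S. alterniflora in 8 genes, none of them called in the main fit. Of 120 alternative values, 116 kept direction and stayed uncalled, 3 gained a call and 1 changed sign. A fit with less power also leaves a gene uncalled, and without control library A 0 genes of the whole table were called. The tally therefore does not show that the results are stable. The sign changed for Sevir.9G177900 without control library B (0.12, against -0.76 without control library C). The cause was not tested. Scaling moved the median of all S. alterniflora effects between -0.05 with median centring and 0.16 with equal totals, around 0.06, and the median of the 19 genes was -0.51 and -0.28 there. Depth is unknown, so S. viridis values near 0 cannot be told from a few reads.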
